A study of Mus musculus with 4 samples.

Results

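Hepatic stellate nuclei were examined in single-nucleus RNA-Seq (snRNA-Seq) data from the livers of WT mice and of mice that lack Nampt in hepatocytes (HNKO). They were taken as all nuclei whose deposited cell type name begins with "Stell", which gave 171 of the 5193 nuclei in the data (3.29%). The WT group was 3 floxed littermates of the Nampt cKO line on the C57BL6/BomTac background. The HNKO group was 3 Nampt fl/fl mice carrying Alb-Cre+/-, in which recombination is driven by the albumin promoter of hepatocytes and stellate cells are not targeted. All 6 mice were females of 8 to 12 weeks at the start and were fed the purified control diet (PD) for 6 weeks. They came from a cohort in which part of the mice drank water with nicotinamide riboside, an NAD precursor, during the last 3 weeks, and in which bile was collected through a catheter under isoflurane before death. Which water these 6 mice received is not given in the sources used here. Nuclei of each mouse were stained with their own hashtag (an antibody that carries a DNA barcode), 4250 per mouse were sorted, and all were pooled for 10x Genomics 3′ sequencing. The comparison asks how nuclei that still carry intact Nampt differ when the hepatocytes around them have lost it. Mice are numbered by hashtag name only.

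Stellate cells are the pericytes of the liver sinusoid and lie between endothelial cells and hepatocytes. In the quiescent state they store vitamin A as retinyl esters, made by lecithin retinol acyltransferase (Lrat), and secrete hepatocyte growth factor, bone morphogenetic proteins and reelin. Upon liver injury they can become activated, lose their retinoid stores, and produce fibrillar collagens and contractile proteins. They are the main source of scar matrix in many forms of liver fibrosis.

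WT mice 1, 2 and 3 contributed 19, 16 and 27 stellate nuclei and HNKO mice 1, 2 and 3 contributed 43, 34 and 32. The summed counts of unique molecular identifiers (UMIs) were 80906, 56672 and 100133 for WT and 172994, 146055 and 135478 for HNKO. Median depth per stellate nucleus was 2962 to 4011 UMIs, and the single nuclei ranged from 1790 to 16206. The median spliced share of UMIs was 17.4% to 18.2% in the WT mice and HNKO mouse 2, and 20.1% and 21.2% in HNKO mice 1 and 3. No barcode was held by more than 1 nucleus. In 156 of the 171 nuclei the hashtag of the assigned mouse was the most abundant one, and HNKO mouse 3 had this in 24 of its 32 nuclei, with a median of 44.5 counts of its own hashtag against 10 in the stellate nuclei of the other mice. Nampt was counted with 3, 1 and 2 UMIs in WT and 14, 14 and 9 in HNKO stellate nuclei. This is 37.1, 17.6 and 19.97 against 80.9, 95.9 and 66.4 CPM (UMIs per 1000000 UMIs of the stellate sum of that mouse), too few to enter the test. In hepatocytes Nampt stood at 84.8, 104.8 and 96.9 CPM in WT and 84.1, 148 and 90.8 CPM in HNKO. These 3′ counts include introns and are not limited to the deleted part of the gene, so that they check nothing about the genotype labels.

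The 5 genes used to check the cell type name were all highest in the stellate nuclei among the 6 cell types. Reln, which encodes the secreted glycoprotein reelin (chr5:21884454-22344702 on GRCm38), was at 5783 CPM against 90.3 CPM in hepatocytes, the next highest type. After every nucleus had been thinned to 1000 UMIs, 83.6% of stellate nuclei held a Reln UMI, against 6.58% of hepatocyte and 2.86% of endothelial nuclei. Median depth before thinning was 3378, 4484 and 3017 UMIs in these types. Nrxn3, a presynaptic adhesion protein (chr12:88722876-90334935), was at 2484 CPM and 29.5-fold above the next type. Pcdh15, a protocadherin best known from inner ear hair cells (chr10:73099342-74649737), was at 596 CPM and 30.8-fold above the next type. Col3a1, the chain of fibrillar collagen III (chr1:45311538-45349706), was at 458 CPM and 68.6-fold above the next type. Lrat (chr3:82892579-82903973) was lowest of the list, at 98.2 CPM and 14.7-fold above the next type, and 26.9% of stellate nuclei held a UMI of it before thinning. Since the nuclei were clustered on these same counts, the ratios describe the cluster and were not tested.

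Genes outside that list separated the nuclei more sharply. Among genes with at least 100 stellate UMIs, the largest ratio to the next type was found for Bmp5, a bone morphogenetic protein, at 2024 CPM against 3.34 CPM in Kupffer cells (606-fold). Colec10, a secreted collectin, was at 999.9 CPM (599-fold), and Pde3a, a cyclic nucleotide phosphodiesterase, was at 2280 CPM (539.7-fold) and was detected in 97.1% of the nuclei. Ntm, an IgLON adhesion protein of neurons, was at 3776 CPM, and Robo2, a receptor for Slit guidance cues, was at 3180 CPM. The others reported of the 15 leading genes were Nr1h5 (a nuclear receptor), Galnt14 (an enzyme of O-glycosylation), Pdgfrb (the PDGF receptor of pericytes), Tbx20 (a T-box transcription factor), Col6a3 (a chain of collagen VI), Pappa (a protease that cleaves IGF binding proteins), Lama1 (a laminin chain), ENSMUSG00000100510 and ENSMUSG00000097324. Their ratios lay between 250.4 and 496. Of these genes, Bmp5 and Colec10 belong to the list of quiescent genes and Col6a3 to the list of activated genes described next. In all, 20 of 24 quiescent genes and 24 of 33 activated genes in the matrix had their highest CPM in stellate nuclei.

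**Figure D1:**
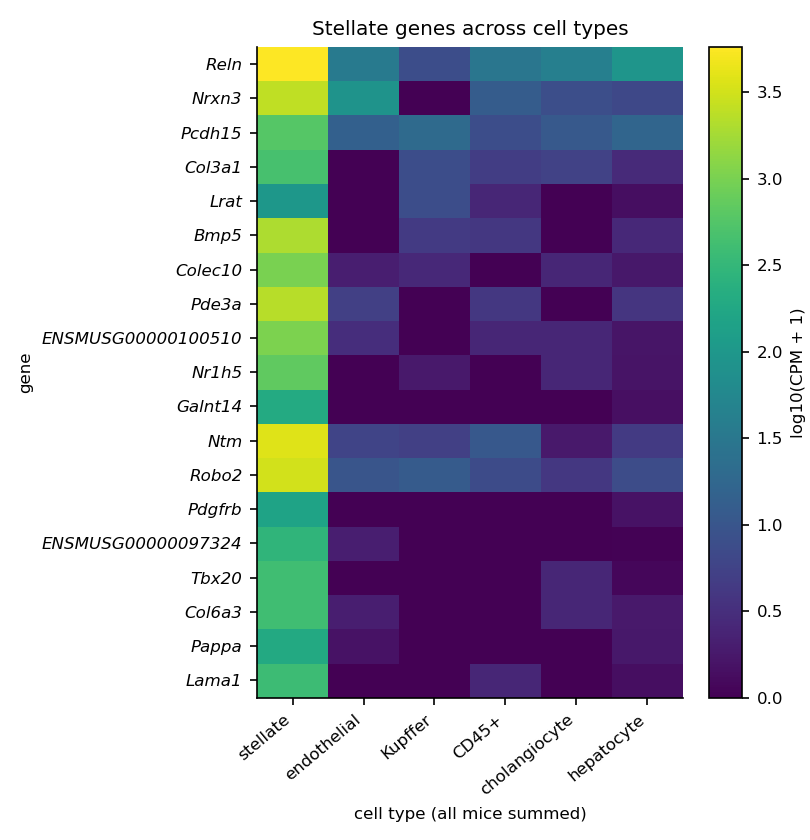
Level of 19 genes in the summed UMIs of each of the 6 cell types, as log10(CPM + 1), with the 5 checked genes and 14 of the 15 genes of largest ratio in rows and the cell types in columns. The stellate column holds the highest value in every row, from 98.2 CPM for Lrat to 5783 CPM for Reln.

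Not every nucleus with this name held these markers. No Reln UMI was found in 22 of the 171 nuclei, 21 held fewer than 5 UMIs of the 5 checked genes together, and 6 held none. Those 21 were spread as 2, 0 and 5 over the WT mice and as 6, 2 and 6 over the HNKO mice, and 16 of them held at least 2 UMIs of smooth muscle, portal fibroblast or mesothelial markers. They were kept, and the leading values are also given without them. Such mesenchymal markers were not limited to these 21. Fewer than 2 UMIs of them were held by 99 of all 171 nuclei. By mouse these were 11 of 19, 13 of 16 and 20 of 27 nuclei in WT and 16 of 43, 25 of 34 and 14 of 32 in HNKO.

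The stellate share of all nuclei was 2.94% ± 0.840 in WT and 3.56% ± 0.498 in HNKO mice (SD, n = 3 each), and the groups overlapped (exact permutation test, two-sided, p = 0.4, where the smallest possible p is 0.1). Single mice ranged from 2.06% (16 of 778 nuclei, exact binomial 95% interval 1.18% to 3.32%) to 4.05% (43 of 1063 nuclei, 2.94% to 5.41%). These intervals cover counting error only. Among non-hepatocyte nuclei the mean stellate share was lower in HNKO, with overlap (28.4%, 24.6% and 40.3% in WT against 17.1%, 26.0% and 15.8%), and with endothelial nuclei as the only others it was 42.2%, 38.1% and 48.2% against 37.7%, 40.0% and 43.2%. The direction thus depended on the denominator, and the exact p was 0.2 and 0.6, respectively.

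No gene passed the FDR threshold of 0.05 between HNKO and WT stellate sums. edgeR's quasi-likelihood test called 0 of 2266 genes (0%), with 160 at an unadjusted p under 0.05, and the smallest FDR was 0.316. DESeq2 called 1 gene, Pcdh15, which was lower in HNKO (log2 fold change -1.86, FDR = 0.00429). Of the 160 genes, 96 were higher (4.24% of all tested) and 64 lower (2.82%) in HNKO. The mice did not overlap between genotypes for 143 genes that were higher (6.31%) and 112 that were lower in HNKO (4.94%). How the mice were chosen from their cohort is not given in the sources used here, and the p-values measure the spread between these 6 mice.

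Pcdh15 had the smallest p of all lower genes. It was at 950.2, 1685 and 888 CPM in WT and 369.8, 354 and 261 CPM in HNKO mice. Every HNKO mouse was below every WT mouse, and the 3 HNKO mice lay close together whereas WT mouse 2 stood above the other two WT mice. The log2 fold change was -1.84 ± 0.34 (SE, edgeR FDR = 0.316). Its level in the other types was low, at 13.5 CPM in endothelial nuclei and 15.7 CPM in hepatocytes. Pcdh15 UMIs were found in 9 of 19, 7 of 16 and 11 of 27 WT nuclei and in 13 of 43, 17 of 34 and 8 of 32 HNKO nuclei. Thinned to 1000 UMIs per nucleus, the shares were 31.6%, 43.8% and 22.2% in WT and 23.3%, 20.6% and 12.5% in HNKO, so that HNKO mouse 2, with the highest share before thinning, then lay below every WT mouse. With only the 99 nuclei that held fewer than 2 UMIs of other mesenchymal markers, the values were 697, 1946 and 898 against 743, 425 and 567 CPM, and HNKO mouse 1 then lay above WT mouse 1.

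The other lower genes that were named by rule, the 8 with the smallest p among those without overlap, were mostly rarely counted. Tafa1, a secreted chemokine-like protein of neurons, was at 334, 353 and 419 CPM in WT and 192, 133 and 144 CPM in HNKO (log2 fold change -1.25 ± 0.31, edgeR FDR = 0.539). Nlrc5, a regulator of MHC class I genes, was at 210.1, 194 and 129.8 against 34.7, 82.2 and 52.3 CPM, and Herc6, an interferon-induced E3 ligase, was at 218, 132 and 206 against 86.7, 87.9 and 29.5 CPM. Dcbld2 was at 358, 229 and 169.8 against 54.9, 116 and 114 CPM and Klhl13 at 425, 300.0 and 279.6 against 162, 199 and 103 CPM. The remaining ENSMUSG00000112800 and ENSMUSG00000093387 had log2 fold changes of -1.69 and -1.05. The smallest edgeR FDR among the 8 was the 0.316 of Pcdh15.

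Among the 8 higher genes with the smallest p, only Lbh and Col3a1 had a higher CPM in stellate nuclei than in hepatocytes. Lbh, a transcription cofactor of limb bud and heart (chr17:72918305-72941947), was at 61.8, 88.2 and 99.9 CPM in WT and 219.7, 301 and 376 CPM in HNKO, against 0.932 CPM in hepatocytes. Its log2 fold change was 1.80 ± 0.37 (SE, edgeR FDR = 0.35). Col3a1 was at 210.1, 194 and 139.8 CPM in WT and 642, 315 and 871 CPM in HNKO, with a log2 fold change of 1.73 ± 0.41 (edgeR FDR = 0.539). All 3 HNKO mice were above all WT mice for both genes, and for Col3a1 HNKO mouse 2 lay nearest to WT. Tmtc2, Prr16, Slc7a2, Gpam and Rapgef4 were among the other 6, of which Tmtc2, an endoplasmic reticulum protein that glycosylates cadherins (chr10:105187663-105574451), had the smallest p. It was at 87.4, 212 and 129.8 CPM in WT and 509, 445 and 568 CPM in HNKO (log2 fold change 1.85 ± 0.36, edgeR FDR = 0.316), against 604 CPM in hepatocytes and 938 CPM in endothelial nuclei. Slc7a2, a transporter of cationic amino acids, was at 222, 441 and 155 against 1158, 548 and 855 CPM, where hepatocytes held 4859 CPM. Over all genes with an unadjusted p under 0.05, 63 of 96 higher genes and 6 of 64 lower genes had a higher CPM in hepatocytes than in stellate nuclei, against 33.0% of all genes tested.

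Hepatocyte RNA in the stellate sums was highest in HNKO mice 1 and 3. The 15 hepatocyte markers summed to 1835, 4125 and 1927 CPM in WT and 5526, 2711 and 4587 CPM in HNKO stellate nuclei, against 27739 CPM in hepatocytes. HNKO mouse 2 lay below WT mouse 2, so that the genotypes overlapped. Alb, which encodes albumin, accounted for 546, 1479 and 429 against 1213, 753 and 1136 CPM and Cps1, the first enzyme of the urea cycle, for 766, 1041 and 619 against 2387, 808 and 1314 CPM. All 10 tested markers had positive fold changes (median log2 fold change 0.89 against 0.02 over all genes tested), 3 had an unadjusted p under 0.05 (4.24% over all genes), and 0 passed the FDR threshold. Without the 18 nuclei with the largest hepatocyte share, of which 8 came from HNKO mouse 3, the sums were 1458, 2042 and 1594 and 1952, 1597 and 1728 CPM. Col3a1 was then at 182, 220.2 and 144 against 712, 335 and 1248 CPM, Tmtc2 at 91.1, 220.2 and 134 against 384, 433 and 555 CPM, and Pcdh15 at 1003, 1922 and 915 against 432, 395 and 203 CPM. The mice still did not overlap for these 3 genes, while the log2 fold change of Cps1 turned to -0.38. The 18 nuclei were picked by the hepatocyte markers, Cps1 among them. The fall of the marker sums and of Cps1 thus follows from the choice and is no check on the 3 genes. Of the 8 higher genes with the smallest p, 4 still had enough counts to be tested, all with positive fold changes, and Prr16, Gpam and Rapgef4 were among those that did not. Of all genes higher at an unadjusted p under 0.05, 60 could still be tested and 58 kept their sign. Slc7a2 then had a log2 fold change of 0.93, against 1.67 with all nuclei.

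The summed level of quiescent genes was lower in HNKO mice 1 and 3 and near the WT level in HNKO mouse 2. The 24 genes summed to 19221, 18730.5 and 16890.2 CPM in WT (18281 ± 1229, SD, n = 3) and to 10812, 18175 and 9135 CPM in HNKO (12708 ± 4809). HNKO mouse 2 lay inside the WT range and HNKO mice 1 and 3 were below every WT mouse. Of the 14 genes with enough counts, 12 had negative and 2 positive fold changes, with a median log2 fold change of -0.62 against 0.02 over all genes tested. None was called, and 2 had an unadjusted p under 0.05, both lower (2.82% of all genes). Without Reln, the most abundant member, the sums were 12282, 11114 and 10152 CPM in WT and 6136, 10636 and 5996 CPM in HNKO. HNKO mice 1 and 3 stayed below every WT mouse without the nuclei richest in hepatocyte RNA (20233, 20682 and 17133 against 11993, 19194 and 11394 CPM), without the nuclei with other mesenchymal UMIs (21312, 18661 and 20017 against 12778, 17074 and 12047 CPM), and without the nuclei of fewer than 5 identity UMIs (20877, 18806 and 20057 against 11716, 18965 and 10092 CPM). HNKO mouse 2 was below WT in the second of these only. HNKO mice 1 and 3 were also the mice with the highest spliced share and the most hepatocyte marker UMIs, and the part of the spliced share in these values was not tested. The 5 checked identity genes, of which Reln and Lrat are also in this list, summed to 11934, 12529.6 and 11522 CPM in WT and 7345, 10947 and 6064 CPM in HNKO, and here all 3 HNKO mice were below the WT mice. Of these 5, Nrxn3 and Pcdh15 were lower (2.82% of all genes) and Col3a1 higher (4.24% of all genes) at an unadjusted p under 0.05.

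**Figure D2:**
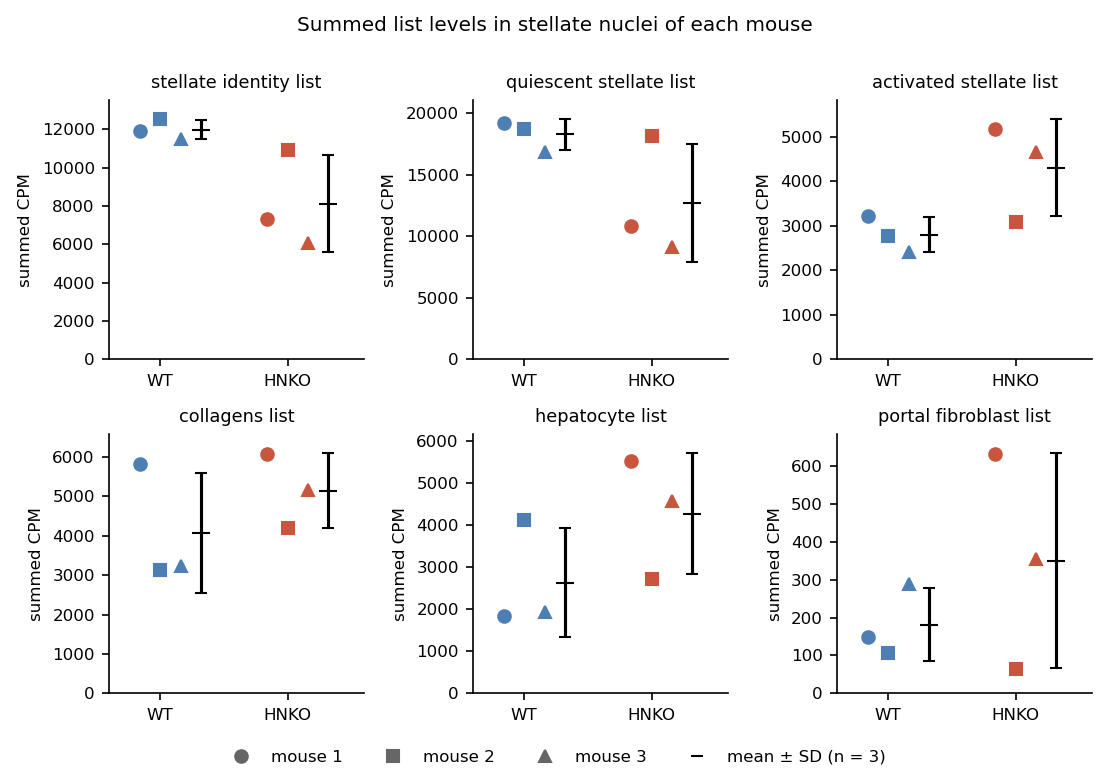
Summed CPM of 6 gene lists in the stellate nuclei of each mouse, with WT and HNKO mice as points and the mean ± SD (n = 3) as bars. In the quiescent panel HNKO mice 1 and 3 lie at 10812 and 9135 CPM, below the lowest WT mouse at 16890.2 CPM, whereas HNKO mouse 2 lies at 18175 CPM.

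Of the secreted factors of the quiescent list, Reln, Hgf, Bmp5, Colec10 and Dcn had their lowest levels in HNKO mice 1 and 3, while Colec11, Ecm1, Cxcl12 and Adamtsl2 did not follow this order. Reln was at 6939, 7616 and 6738 CPM in WT and 4677, 7539 and 3139 CPM in HNKO (log2 fold change -0.49 ± 0.30, edgeR FDR = 0.804). Hgf, the growth factor for hepatocytes, was at 3411, 3758 and 2547 against 2064, 3054 and 1366 CPM, and Bmp5 at 3139, 1976 and 2710.5 against 1246, 2636 and 1203 CPM. HNKO mouse 2 lay inside the WT range for each of these. The collectin Colec10 was at 1965, 1061 and 1288 against 316, 1464 and 557 CPM in the same order, whereas its partner Colec11 (185, 194 and 169.8 against 57.8, 157 and 185 CPM) overlapped, with HNKO mouse 1 lowest. Ecm1, an inhibitor of TGF-beta activation, overlapped at 198, 176 and 259.7 against 98.3, 260.2 and 177 CPM, as did the chemokine Cxcl12 at 297, 282 and 309.6 against 289, 397 and 295 CPM. Dcn, which encodes the proteoglycan decorin, was at 885, 1694 and 1009 against 708, 1164 and 864 CPM and Adamtsl2, a microfibril-associated protein, at 148, 106 and 239.7 against 543, 68.5 and 221 CPM, where HNKO mouse 1 was the highest of all.

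Receptors and transcription factors of the quiescent list differed in how far HNKO mouse 2 departed from WT. Vipr1, the receptor for vasoactive intestinal peptide, was at 556, 459 and 509 CPM in WT and 145, 445 and 162 CPM in HNKO (log2 fold change -1.04 ± 0.43, edgeR FDR = 0.67), so that HNKO mouse 2 lay just below the lowest WT mouse. Gata4, a transcription factor of quiescent stellate cells, was at 409, 436 and 341 against 224, 231 and 301 CPM (log2 fold change -0.66 ± 0.30, edgeR FDR = 0.703), and its 3 HNKO mice lay together below WT. These were the 2 of the 14 tested members whose mice did not overlap, both lower, where 4.94% of all genes tested were lower without overlap. Pth1r, the parathyroid hormone receptor, was at 383, 353 and 109.9 against 52, 212 and 169.8 CPM, and Rgs5, a regulator of G protein signalling shared with pericytes, at 272, 70.6 and 259.7 against 92.5, 219 and 51.7 CPM. Lrat, the enzyme of retinyl ester storage, was at 124, 212 and 79.9 against 116, 82.2 and 44.3 CPM, with 6 to 20 UMIs per mouse. Lhx2, a LIM homeobox factor, had at most 9 UMIs in any mouse and was not tested.

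**Figure D3:**
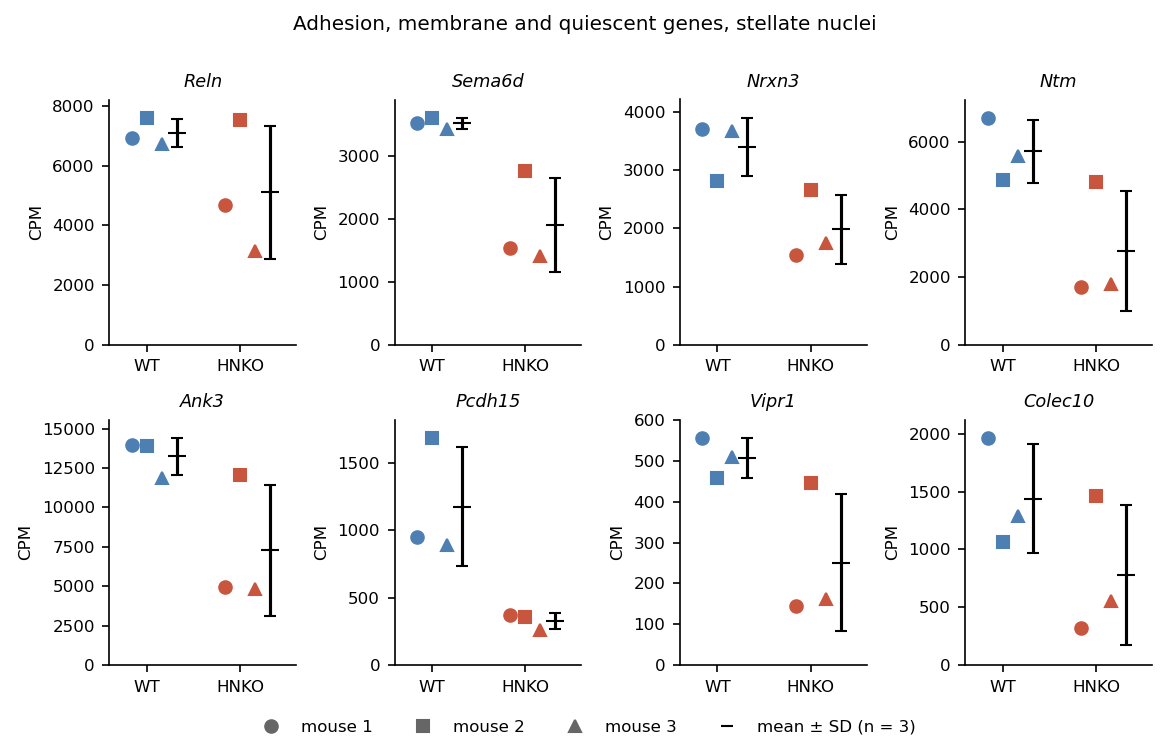
CPM of 8 adhesion, membrane and quiescent genes in the stellate nuclei of each mouse, with the mean ± SD (n = 3) of each genotype. HNKO mouse 2 lies near WT for Ank3, Ntm and Colec10, whereas for Pcdh15 it lies with the other HNKO mice at 354 CPM.

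The summed level of activated genes was higher in HNKO mice 1 and 3 than in the WT mice, while single members differed. The 33 genes in the matrix summed to 3214, 2779 and 2417 CPM in WT (2803 ± 399, SD, n = 3) and 5174, 3095 and 4671 CPM in HNKO (4313 ± 1085), and HNKO mouse 2 lay inside the WT range. Of the 11 genes with enough counts, 7 had positive and 4 negative fold changes, with a median log2 fold change of 0.33 against 0.02 over all genes tested. None passed the FDR threshold, and 4 were higher at an unadjusted p under 0.05 (4.24% of all genes), namely Col3a1, Col1a2, Tpm1 and Fn1. Fn1 was at 1723 CPM in hepatocytes against 273 CPM in stellate nuclei, and its log2 fold change was 0.38 without the nuclei richest in hepatocyte RNA, against 1.11 with all nuclei. Those of Col3a1, Col1a2 and Tpm1 were then 2.04, 1.75 and 1.24. Without the nuclei that held other mesenchymal UMIs, the sums were 2181, 2908 and 1972 against 3159.7, 3084 and 3280.0 CPM, so that the gap to WT was smaller and all 3 HNKO mice stood above WT. In this selection the hepatocyte markers summed to 1754, 4488 and 2081 CPM in WT and 11245, 3084 and 4070 CPM in HNKO. The log2 fold change of Fn1 was then 1.46. The part of hepatocyte RNA in these activated sums was not tested. Without the nuclei of fewer than 5 identity UMIs the activated sums were 2544, 2780.2 and 2014 against 5367, 3016 and 4634 CPM.

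Fibrillar collagen I and III transcripts were most abundant in HNKO mice 1 and 3. Col1a2, a chain of collagen I, was at 124, 70.6 and 105 CPM in WT and 364, 116 and 266 CPM in HNKO (log2 fold change 1.29 ± 0.46, edgeR FDR = 0.647), and HNKO mouse 2 overlapped WT. Its partner chain Col1a1 was counted with 3, 1 and 5 UMIs in WT and 46, 1 and 17 UMIs in HNKO, too few for the test over all mice. For Col6a3, of the collagen VI microfibrils, the values were 124, 194 and 289.6 and 723, 116 and 627 CPM, with HNKO mouse 2 as the lowest of all 6. The fibrillar collagen V chains did not follow this order. Col5a1 was at 383, 441 and 229.7 against 317.9, 397 and 288 CPM and Col5a2 at 643, 335 and 229.7 against 445, 233 and 428 CPM, with full overlap. Neither did Col14a1, a fibril-associated collagen (2332, 847 and 1178 against 873, 1996 and 1330.4 CPM), or Col4a1 of the basement membrane (1100.0, 494 and 279.6 against 1012, 493 and 162 CPM). The 27 collagen genes together overlapped between genotypes (5815, 3141 and 3226 against 6072, 4189.9 and 5169 CPM). Among the 9 collagens tested, 5 had positive and 4 negative fold changes (median 0.20) and 0 were called. An unadjusted p under 0.05 was found for 2 of them, both higher (4.24% of all genes). Without the nuclei that held other mesenchymal UMIs, Col3a1 was at 135, 252 and 109 against 248, 248 and 526 CPM, which overlapped by HNKO mice 1 and 2 lying just below WT mouse 2. The 27 collagen genes then summed to 5395, 2977 and 2570 against 3438.5, 3947 and 3563 CPM. Their means were 3647 CPM in WT and 3650 CPM in HNKO, against 4061 and 5144 CPM with all nuclei.

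**Figure D4:**
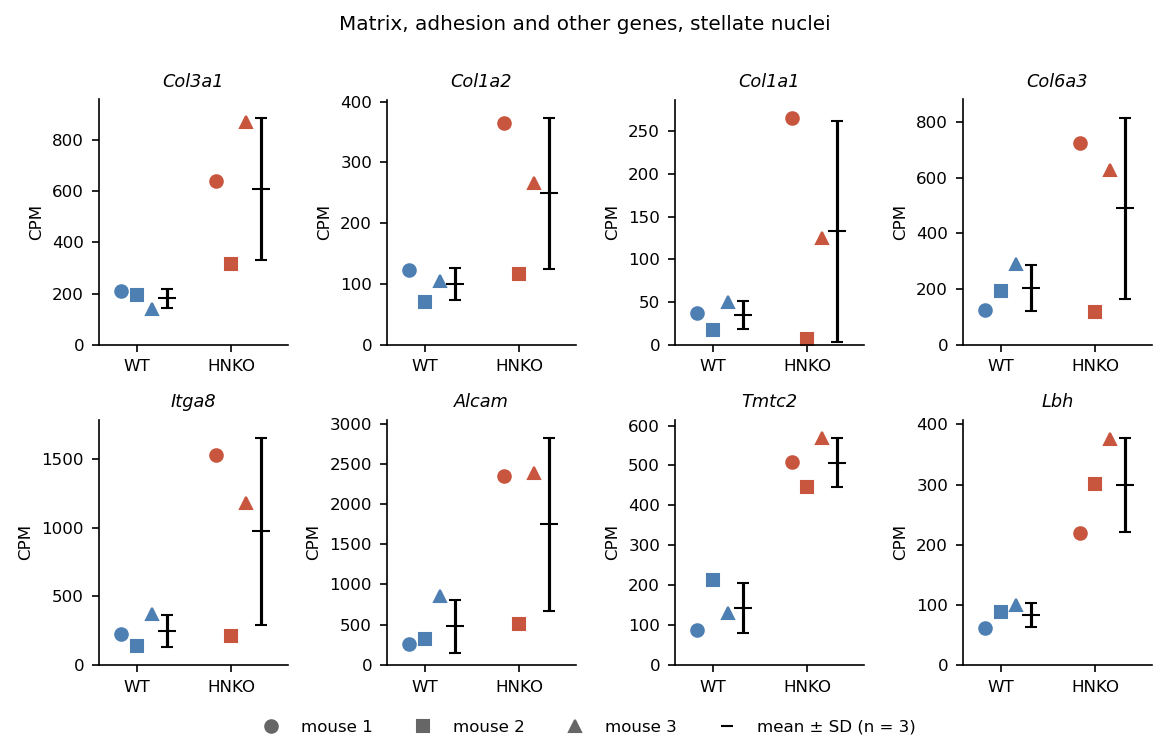
CPM of 8 collagen, adhesion and other genes in the stellate nuclei of each mouse, with the mean ± SD (n = 3) of each genotype. HNKO mouse 2 is near WT for Itga8, Alcam and Col6a3, and stands apart from WT for Tmtc2 (445 CPM) and Lbh (301 CPM).

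Of the remaining activated genes, Fn1, which encodes fibronectin, was at 247, 176 and 59.9 CPM in WT and 231, 267 and 546 CPM in HNKO, and the mice overlapped. Tpm1, a tropomyosin of contractile filaments, was at 173, 35.3 and 59.9 against 225, 239.6 and 244 CPM (log2 fold change 1.33 ± 0.46, edgeR FDR = 0.647) with no overlap. Postn, which encodes periostin, overlapped at 198, 17.6 and 119.8 against 243, 151 and 51.7 CPM. Fbn1 of the microfibrils, Tgfbi and the integrin chain Itgav overlapped too, with log2 fold changes of -0.25, 0.17 and -0.17. Ccn2, a matricellular target of TGF-beta listed under its current name only, had 0 UMIs in HNKO mouse 3 and in WT mouse 1. Tagln and Lum had at most 21 UMIs in any mouse, and so had Vim. Col8a1 was counted with 31 UMIs in HNKO mouse 3 and 1 to 13 in the others. Classical markers that fell outside the rule for named genes were added after their values were seen. Acta2, the smooth muscle actin of activated stellate cells, had 11 UMIs in HNKO mouse 1 and 0 in the other 5 mice, where a count of 0 allows up to 3 UMIs. Lox, the collagen cross-linking enzyme, had 4 UMIs in HNKO mouse 1 and 0 elsewhere, and Timp1, an inhibitor of matrix metalloproteinases, had 0 in all mice. Desmin (Des), a filament protein of quiescent stellate cells, was counted with 6, 0 and 3 UMIs in WT and 3, 5 and 6 in HNKO.

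In single nuclei the quiescent genes showed the same order. They took a median of 1.94%, 1.99% and 1.81% of a nucleus's UMIs in WT mice 1, 2 and 3, and of 0.859%, 1.63% and 0.619% in the HNKO mice. In HNKO mice 1 and 3 the upper quartile over nuclei, at 1.43% and 1.59%, lay below every WT median. The activated genes took a median of 0.274%, 0.279% and 0.1998% in WT and of 0.424%, 0.277% and 0.352% in HNKO. A UMI of Col1a1, Col1a2 or Col3a1 was found in 11 of 19, 6 of 16 and 14 of 27 WT nuclei and in 37 of 43, 23 of 34 and 20 of 32 HNKO nuclei. Thinned to 1000 UMIs per nucleus, the shares were 26.3%, 25% and 18.5% in WT and 55.8%, 35.3% and 50% in HNKO. All 3 HNKO mice were above the WT mice. These shares are not given here without the nuclei that held other mesenchymal UMIs. In the same thinned data 22 of 4410 hepatocyte nuclei (0.499%) and 0 of 245 endothelial nuclei held such a UMI, so that these collagens were rarely counted in either type. Before thinning, at least 3 collagen UMIs were held by 2 of 19, 4 of 16 and 2 of 27 WT nuclei. In HNKO they were held by 22 of 43, 7 of 34 and 15 of 32 nuclei. The share of HNKO mouse 2 was below that of WT mouse 2, so that the genotypes overlapped here. Single nuclei weighed on the sums of every mouse. The nucleus with the most of these UMIs held 9, 4 and 11 in the WT mice (30%, 25% and 37.3% of the mouse's collagen UMIs) and 63, 15 and 40 in the HNKO mice (28.6%, 23.4% and 23.4%).

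**Figure D5:**
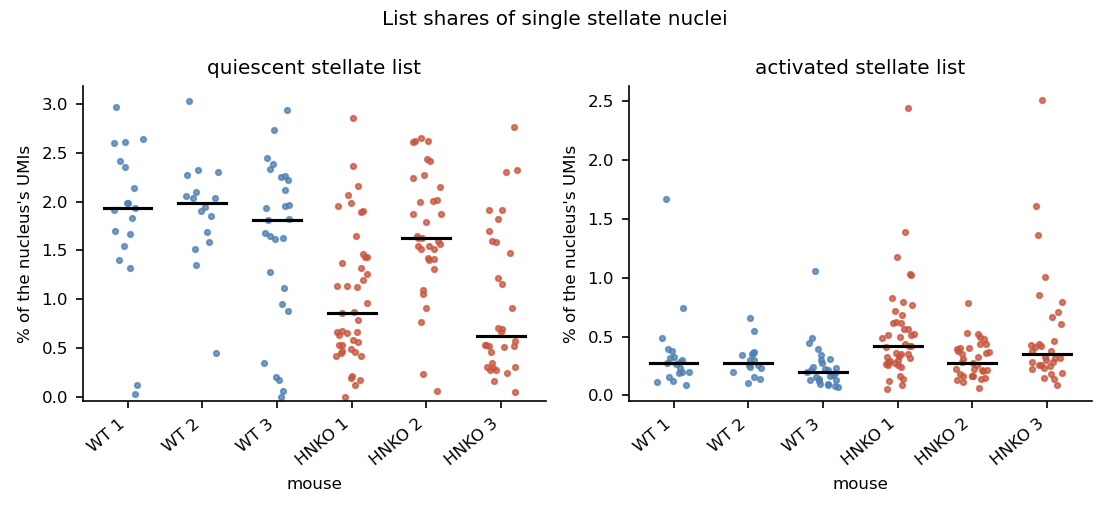
Share of UMIs per stellate nucleus taken by the quiescent and the activated list, by mouse, with one point per nucleus and a line at the median. The quiescent medians are 1.81% to 1.99% in the WT mice, 0.859% and 0.619% in HNKO mice 1 and 3, and 1.63% in HNKO mouse 2.

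Since HNKO mouse 2 often stood apart from the other HNKO mice, the count of called genes depended on it. When it was left out, edgeR called 47 of 2218 genes, 19 of them higher (0.857%) and 28 lower (1.26%) in HNKO mice 1 and 3 than in WT, whereas leaving out any other mouse gave 0 or 1. HNKO mouse 2 lay inside the WT range for 24 of the 47, above it for 8 and below it for 15, and in 17 it lay beyond WT in the direction of the other HNKO mice. The matching counts over all 2218 genes are not given here, so that nothing is read from the 17. Of the 47, 43 could be tested with all mice and all had the same sign there. Both fits share every mouse but HNKO mouse 2, so that the same sign is no separate support for the 47. These genes were named after their values were seen, and what follows describes 2 HNKO mice against 3 WT mice.

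Of the 28 lower genes, 0 had a higher CPM in hepatocytes than in stellate nuclei. The members described here were grouped after their values were seen. Ank3, the ankyrin-G that anchors membrane proteins (chr10:69398773-70027438), was at 13954, 13887 and 11894 CPM in WT and 4965, 12071 and 4813 CPM in HNKO. The fit without HNKO mouse 2 gave a log2 fold change of -1.48 ± 0.16 (edgeR FDR = 0.00317), and the fit of all mice gave -0.88 ± 0.33 (FDR = 0.67). HNKO mouse 2 was inside the WT range. Ntm was at 6704, 4852 and 5563 against 1704, 4811 and 1785 CPM (log2 fold change without HNKO mouse 2 -1.76 ± 0.23) and Nrxn3 at 3711, 2822 and 3676 against 1541, 2657 and 1749 CPM (-1.10 ± 0.24). In both genes HNKO mouse 2 lay slightly below the lowest WT mouse. Lsamp, an IgLON like Ntm, was at 5935, 3595 and 2308 against 446, 2435 and 1012 CPM, the axon guidance protein Sema6d at 3523, 3599.7 and 3422 against 1542, 2756 and 1405 CPM, and the receptor phosphatase Ptprt at 556, 857 and 751 against 142, 908 and 44.3 CPM, where HNKO mouse 2 was the highest of all mice. Receptors and channels in this group were Calcrl, the receptor subunit for adrenomedullin and CGRP (2052, 2612 and 2057 against 647, 1797 and 875 CPM), the mechanosensitive channel Piezo2 (1717, 918 and 990.3 against 339, 1272 and 244 CPM), the potassium channel subunit Abcc9 (1248, 1606 and 1398 against 607, 1287 and 576 CPM), the NMDA receptor subunit Grin2b and Vipr1. Hhip, which binds hedgehog ligands, was at 618, 141 and 309.6 against 34.7, 267 and 73.8 CPM and Prkg1, the cGMP-dependent kinase, at 10651, 8769.8 and 9179 against 5647, 9981 and 5429.9 CPM. From the identity and quiescent genes, Pcdh15, Galnt14 and Colec10 were also among the 28, whereas Robo2, another leading gene of the stellate identity, was not (log2 fold change 0.19 with all mice). Without the nuclei richest in hepatocyte RNA, and with all 6 mice, all 28 kept their negative sign. The 28 were picked on mostly the same nuclei, so that the kept sign is no separate support. Of all genes lower at an unadjusted p under 0.05, 60 of the 60 still tested kept their sign too.

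Of the 19 higher genes, 9 had a higher CPM in hepatocytes than in stellate nuclei (among them Gfra1, Kynu, Mug1, Alcam, Tmtc2, Slc7a2, Rapgef4 and Slco1b2). Itga8, the integrin chain that pairs with beta-1 and is typical of mesenchymal cells, was not among these. It was at 227, 141 and 369.5 CPM in WT and 1531, 212 and 1179 CPM in HNKO (log2 fold change 2.37 ± 0.39 without HNKO mouse 2, edgeR FDR = 0.0263), against 1.6 CPM in hepatocytes and 187 CPM in endothelial nuclei. Without the nuclei that held other mesenchymal UMIs, Itga8 was at 247, 183 and 299 against 852, 201 and 567 CPM. Ncam1, the neural cell adhesion molecule, was counted with 3, 1 and 4 UMIs in WT and 86, 2 and 35 UMIs in HNKO. Slc8a1, the sodium-calcium exchanger, was at 210.1, 106 and 119.8 against 965, 34.2 and 627 CPM and Plce1, a phospholipase C, at 98.9, 88.2 and 273 against 888, 147 and 664 CPM. Smad6, an inhibitor of BMP signalling, was at 49.4, 70.6 and 89.9 against 237, 47.9 and 421 CPM. Among matrix genes, Col3a1 (2.02 ± 0.35), Col6a3 (1.67 ± 0.37) and the chondroitin sulfotransferase Chst11 (2.51 ± 0.48) were called. Fhl2, a LIM domain cofactor, and the zinc finger factor Hivep3 completed the 10 that were higher in stellate nuclei than in hepatocytes. Without the nuclei richest in hepatocyte RNA, 10 of the 19 had enough counts to be tested with all 6 mice and all 10 had positive fold changes, although that of Slco1b2 was 0.074 against 1.56 with all nuclei. The 19 too were picked on mostly the same nuclei. Of all genes higher at an unadjusted p under 0.05, 58 of the 60 still tested kept their sign. Alcam, an adhesion molecule, was at 259.6, 318.02 and 859 against 2349, 508 and 2386 CPM, where hepatocytes held 1477 CPM.

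By the ratio of the mean sums, further lists of stellate function showed smaller gaps than the quiescent and activated lists. With all mice 0 of their genes were called. The median log2 fold change was nevertheless above the 0.33 of the activated list for TGF-beta and PDGF signalling (0.55) and for inflammatory signals (0.59). Genes of TGF-beta and PDGF signalling summed to 2447, 2453 and 2977 CPM in WT and 2962, 3016 and 3477 CPM in HNKO, and 10 of the 13 tested had positive fold changes (median 0.55). Within it, the co-receptor Tgfbr3 was at 989, 865 and 1149 against 677, 931 and 576 CPM, whereas the signalling receptor Tgfbr1 was at 136, 159 and 89.9 against 283, 116 and 332 CPM and the latency protein Ltbp1 at 124, 194 and 369.5 against 399, 479 and 332 CPM. Ligand Pdgfd was at 247, 124 and 169.8 against 249, 377 and 192 CPM. Pdgfrb, the receptor that it binds, was at 98.9, 70.6 and 119.8 against 150.3, 82.2 and 325 CPM. The mice overlapped for all of these. Matrix turnover genes summed to 3487, 2279.6 and 3076 against 4895, 2501 and 2979 CPM, with 6 of 8 tested positive, among them the proteases Adamts12 (581, 363 and 249.7 against 699.8, 411 and 591 CPM) and Adamts2 (309, 265 and 399 against 763, 335 and 450.3 CPM). Adamts9 had a negative fold change (-0.57 ± 0.42) and Adamtsl1 overlapped widely.

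Retinoid genes as a group overlapped, at 2085, 2024 and 3426 CPM in WT and 2794, 2502 and 1845 CPM in HNKO, and 2 of the 5 tested had positive fold changes. The retinal-oxidising enzyme Aldh1a1 varied most between mice (1002, 636 and 2365 against 1574, 1058 and 605 CPM), and the receptors Rarb (502, 619.5 and 501 against 341, 753 and 266 CPM) and Rxra (185, 70.6 and 149.8 against 173, 151 and 155 CPM) overlapped. The retinal reductase Dhrs3 was at 37.1, 141 and 39.9 against 237, 103 and 73.8 CPM. Secreted signals of stellate cells, which share Reln, Hgf and Bmp5 with the quiescent list, summed to 18758, 18496 and 17911 against 12365, 18926 and 10443 CPM, and 9 of the 12 tested had negative fold changes. Inflammatory signals summed to 1471, 1306 and 1373 against 1576, 1637 and 2121 CPM with no overlap in the sums, and 4 of 5 tested were positive. Their largest member, the interleukin-1 receptor Il1r1, was at 519, 423 and 459.5 against 721, 577 and 859 CPM (log2 fold change 0.59 ± 0.30, edgeR FDR = 0.739). Il6st, Nfkb1 and Stat3 had fold changes of 0.62, 0.26 and -0.39 on the log2 scale. Genes that mark the position of stellate cells between portal and central veins overlapped in sum (1642, 1691 and 1783 against 1672, 1727 and 1318 CPM), and so did the Wnt amplifier Rspo3 of the central region (717, 1129 and 459 against 532, 869.5 and 310.0 CPM), the cytokine Il34 (482, 282 and 779 against 150.3, 486 and 362 CPM) and Podn.

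NAD metabolism genes were rarely counted, at 415, 335 and 489.7 CPM in WT and 519, 680.0 and 719.9 CPM in HNKO in sum, with no overlap. Nampt itself supplied 37.1, 17.6 and 19.97 CPM of this in WT and 80.9, 95.9 and 66.4 CPM in HNKO, and in endothelial nuclei Nampt was at 33.6, 11.0 and 27.7 CPM against 97.6, 86.7 and 51.2 CPM. Only Parp14, a mono-ADP-ribosyltransferase, could be tested, and it overlapped (86.5, 88.2 and 149.8 against 57.8, 199.6 and 111 CPM). The kinases Nadk and Nadk2 had at most 10 UMIs in any mouse. Proliferation markers were nearly absent, at 0 to 35.3 CPM per mouse, and Mki67 and Top2a had 0 UMIs in all stellate nuclei.

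Markers of other cell types were low but not absent in the stellate sums. Portal fibroblast genes summed to 148, 106 and 289.6 CPM in WT and 630.1, 65 and 354 CPM in HNKO, so that HNKO mice 1 and 3, which had the most Col1a1, were also highest here, and HNKO mouse 2 was lowest. Eln, which encodes elastin (49.4, 88.2 and 239.7 against 341, 41.1 and 96 CPM), and Col15a1 (3, 0 and 1 UMIs in WT and 24, 0 and 22 in HNKO) made up most of it, while Thy1, Gli1 and Pi16 were at 0. Dpt and Fbln1 had at most 6 UMIs in any mouse. Smooth muscle and pericyte genes overlapped at 1026, 212 and 409 against 538, 472 and 273 CPM, with Cnn1, Actg2 and Kcnmb1 at 0, Myh11 at 19, 2 and 0 against 16, 7 and 9 UMIs and Smtn at 5 to 15 UMIs. Mesothelial genes stood at 0, 0 and 89.9 CPM against 98.3, 20.5 and 51.7 CPM, and Wt1, which is shared with some mesenchymal cells, had 0, 0 and 0 UMIs in WT and 16, 3 and 6 in HNKO, with Msln, Upk3b, Upk1b and Lrrn4 at 0. The part that such nuclei have in the collagen values was not tested beyond the values without them given above.

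Cholangiocyte markers summed to 335, 396 and 715 CPM in WT and 1306, 699 and 1730.1 CPM in HNKO, against 10354 CPM in cholangiocytes. Nearly all of this was Bicc1, an RNA-binding protein (286, 308 and 659.7 against 1225, 679 and 1531 CPM, log2 fold change 1.41 ± 0.41, edgeR FDR = 0.633), and without it the list was at 49.6, 88.2 and 54.9 against 80.9, 20.5 and 199 CPM, with Krt19 and Cftr at 0. Bicc1 in hepatocytes and endothelial nuclei was at 11.3 and 12.4 CPM. Endothelial markers were at 61.8, 52.9 and 341 against 156, 185 and 155 CPM (11405 CPM in endothelial nuclei), with Cdh5 and Lyve1 at 0. Kupffer markers were at 0 to 59.9 CPM per mouse with Adgre1, Csf1r and Marco at 0, and leukocyte markers were at 6.18 to 181 CPM per mouse with Cd3e, Ms4a1, Flt3 and Itgam at 0. Both overlapped between genotypes.

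Whether a genotype effect differed between stellate nuclei and another cell type was tested with mouse as a block. Against endothelial nuclei edgeR called 0 of 3235 genes (0%), with 175 at an unadjusted p under 0.05, and DESeq2 called 0 with 69. The smallest p was that of Nrxn3, which was lower in HNKO stellate nuclei, while in endothelial nuclei it stood at 11.2, 0 and 0 CPM in WT and 74.9, 16.3 and 333 CPM in HNKO (log2 difference of the effects -5.50 ± 1.30, FDR = 0.812). For Pcdh15 the difference of the effects was -1.90 ± 0.87 (FDR = 0.903). Col3a1 had 0 UMIs in endothelial nuclei of all mice, so that its effect could not be compared there. Nothing can therefore be called particular to stellate nuclei against endothelial nuclei.

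Against hepatocytes, the cells that carry the deletion, edgeR called 62 of 11473 genes (0.54%), of which 49 had a more positive effect in stellate nuclei. This count did not hold in DESeq2, which called 0, with 411 at an unadjusted p under 0.05 against 889 in edgeR. It was also 0 without the mouse block, with at least 20 stellate UMIs required, and without HNKO mouse 1. Of the 62, 49 had a higher CPM in hepatocytes than in stellate nuclei. The matching share over all 11473 genes is not given here, so that nothing is read from this count. Nid1, the basement membrane protein nidogen-1, had a higher CPM and a lower effect in stellate nuclei (log2 difference of the effects -3.22 ± 0.65, edgeR FDR = 0.00254). It was at 272, 194 and 219.7 CPM in WT and 75.1, 192 and 148 CPM in HNKO stellate nuclei. The hepatocyte levels were 1.23, 3.35 and 1.35 against 23.9, 1.28 and 27.8 CPM. In hepatocytes HNKO mice 1 and 3 were again the mice that departed from WT. Tmtc2, whose stellate values are given above, was nearly level in hepatocytes at 569, 603 and 729 against 614, 574 and 545 CPM (log2 difference 2.34 ± 0.51, edgeR FDR = 0.0051). Neither Pcdh15 (-1.55 ± 0.46, FDR = 0.0944) nor Col3a1 (1.97 ± 0.64, FDR = 0.164) passed the threshold in this comparison.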

How the data were processed

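Livers of 3 WT and 3 HNKO mice were measured by snRNA-Seq. The authors demultiplexed reads with Cell Ranger version 5.0.1, quantified them with Alevin on GRCm38 and GENCODE M25 with introns included, removed nuclei without a single hashtag call or with many genes, and clustered and named the rest in Seurat. The authors deposited estimated counts of UMIs per gene and nucleus, of which 10.1% of nonzero values differed by more than 0.001 from a whole number, and separate hashtag counts. Their SCTransform-corrected score in the deposited files was not used here. Droplets holding 2 nuclei of one mouse are not removed by hashtags, and no doublet caller was run.

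Estimated counts of stellate nuclei were summed per mouse and rounded (16 to 43 nuclei and 56672 to 172994 UMIs per mouse). The quasi-likelihood F test of edgeR (version 4.0.16, R version 4.3.3) was run on genotype after filterByExpr and TMM, two-sided, at a Benjamini-Hochberg FDR of 0.05. Differences of the genotype effect between cell types were tested with mouse as a block. DESeq2 version 1.42.0, RLE factors, other filters, left-out mice and left-out nuclei were alternatives. CPM values are per 1000000 UMIs of the sum without TMM, fold changes include TMM, and the median log2 fold change of all tested genes was 0.02. The tests were tried first on simulated counts with the same dispersion for every gene and no mouse that departed from its group. That trial is no check on how the tests behave where a mouse does depart from its group. Mice are told apart only by the hashtag in the deposited table.

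The members and gene lists were chosen with earlier results of these data known. Named genes were Nampt, the identity list, quiescent and activated genes with at least 30 UMIs, up to 4 members of other lists with the most UMIs, the 8 higher and 8 lower genes of smallest p without overlap, called genes and the first 8 of each interaction, and the 15 genes of largest ratio to the next type. Some genes that this rule names are not reported here. Gene positions are from the GENCODE annotation of GRCm38 supplied with the data. Python version 3.11.15 (numpy 2.4.6, scipy 1.17.1, pandas 2.3.3) and matplotlib version 3.10.9 were used.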

Additional observations from a re-analysis of the deposited data

Results flagged for a closer look

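The 62 genes whose genotype effect differed between stellate nuclei and hepatocytes were singled out because the difference of the effects passed the FDR threshold in edgeR. DESeq2 called none of the 62 and 0 genes in all, so the values of 7 of the 8 with the smallest p are given as they stand. Values are log2 differences, the effect in stellate nuclei minus the effect in hepatocytes, with SE.

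The overlapping genes Pakap.1 and Pakap.2 share reads that cannot be assigned with certainty. Pakap.1 had a difference of -3.02 ± 0.51, at 519, 415 and 361 CPM in WT and 298, 397 and 316 CPM in HNKO stellate nuclei against 5.2, 3.47 and 3.15 and 67.8, 6.94 and 46.4 CPM in hepatocytes. For Pakap.2 it was -2.75 ± 0.57, at 235, 247 and 135 and 165, 154 and 248 CPM against 5.2, 3.47 and 3.04 and 66.7, 6.9 and 46.5 CPM. Nid1 had a difference of -3.22 ± 0.65. Stellate levels overlapped between genotypes for Pakap.1 and Pakap.2, and in all 3 genes HNKO mice 1 and 3 were the highest in hepatocytes.

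The other 4 had a higher level in hepatocytes. Cyp2c29, a cytochrome P450 of hepatocytes, had a difference of 3.16 ± 0.64, at 61.8, 70.6 and 19.97 and 104, 95.9 and 118 CPM in stellate nuclei against 2109, 2508 and 459 and 303, 1549 and 213 CPM in hepatocytes. Gfra1, a co-receptor for GDNF, had 3.27 ± 0.67, at 37.1, 35.3 and 19.97 and 459.6, 61.6 and 210.4 CPM against 1213, 742 and 2652 and 3075, 931 and 698 CPM. Slc7a2 had 2.49 ± 0.52, with hepatocyte levels of 4670.1, 5485 and 6341 against 5670.1, 5218 and 1959.7 CPM. Cyp4f15 had a fitted difference of 10.24, which is no bound, since it had 0 UMIs in WT stellate nuclei and 9, 3 and 13 in HNKO.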

How the results depend on the processing

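The stellate comparison called 0 genes in edgeR, and 1 with DESeq2 and 29 with no low count filter. Leaving out 1 mouse gave 0 to 47, where the 47 came without HNKO mouse 2. Without WT mouse 2 it gave 1 gene, Nxph1, which was chosen after its values were seen. Nxph1 had UMIs of 25, 0 and 23 in WT and 1, 0 and 0 in HNKO. These UMIs lay in only 2, 0 and 1 WT nuclei and 1, 0 and 0 HNKO nuclei. RLE factors, a minimum of 50 UMIs, and the 4 selections of nuclei gave 0. Of those selections, at least 5 identity UMIs (150 nuclei) and own hashtag highest (156 nuclei) were added after seeing the data. With own hashtag highest, HNKO mouse 3 was at 585 CPM for Col3a1, against 871 CPM with all its nuclei. Its activated sum was 3671 against 4671 CPM and its collagen sum 4043 against 5169 CPM. The quiescent sum of this mouse was 9265 against 9135 CPM. The stellate share differed by 0.623 percentage points over all nuclei, by -11.4 over non-hepatocyte and -2.52 over stellate and endothelial nuclei, and by 0.183 to 1.02 with 1 mouse left out, lowest without WT mouse 2. Calls against endothelial nuclei were 0 to 18 with 1 mouse left out, the 18 without HNKO mouse 2. Those against hepatocytes went from 62 to 0 with DESeq2, 0 with no mouse block, 0 with at least 20 stellate UMIs and 43 with RLE factors, and to between 0 (without HNKO mouse 1) and 175 (without HNKO mouse 2) with 1 mouse left out. The cause was not tested.

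Of single-gene log2 fold changes, 925 values kept direction and side of the threshold, 42 passed it in addition and 39 changed sign. With 1 mouse left out the sign changed for Ecm1 -0.70 to 0.015, Cxcl12 -0.072 to 0.21, Adamtsl2 -0.25 to 1.12, Col5a1 -0.34 to 0.057, Col5a2 -0.49 to 0.38, Postn -0.23 to 0.92, Tgfbi -0.16 to 0.42, Itgav -0.32 to 0.078, Col14a1 -0.47 to 0.43, Col4a1 -0.95 to 0.54, Adamtsl1 -0.0015 to 1.196, Aldh1a1 -0.71 to 0.34, Rxra -0.14 to 0.43, Nfkb1 -0.0048 to 0.41, Eln -0.13 to 1.23, Smtn -0.89 to 0.16, Alb -0.00042 to 1.00, Pck1 -0.28 to 0.86, Parp14 -0.46 to 0.46, Pakap.2 -0.39 to 0.0037, ENSMUSG00000097324 -0.78 to 0.00048 and Tbx20 -0.38 to 0.091 (lowest to highest log2 fold change). Without the 10% of nuclei with most hepatocyte UMIs it changed for Col5a1 0.062, Col5a2 0.097, Col14a1 0.049, Cps1 -0.38, Pakap.2 0.086 and Tbx20 0.11. Without the nuclei that held other mesenchymal UMIs it changed for Ecm1 0.0062, Col5a1 0.16, Adamtsl1 -0.25, Ltbp1 -0.12 and Robo2 -0.19.

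No paired analysis was possible because the hashtag names of WT and HNKO mice share no number. Each RNA pool alone was not run, since barcodes carry no pool. Depth limits these results: with 16 to 43 nuclei per mouse, most of the 54464 genes in the matrix were not tested.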
